A study of Mus musculus with 23 samples.

Results

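The replication-dependent histone genes were taken as all gene symbols of the count table that begin with Hist1h, Hist2h, Hist3h or Hist4h, which gave 68 of 24411 symbols. They comprised 6 H1, 18 H2A, 19 H2B, 12 H3 and 13 H4 genes, of which 54 lie on chromosome 13, 10 on chromosome 3, 3 on chromosome 11 and 1 on chromosome 6 (GENCODE M21, build GRCm38). RNA was sequenced from cortical astrocytes of 23 male mice at postnatal day 70, 1 library per mouse, to compare mice that lacked Aldh7a1, a lysine-catabolic aldehyde dehydrogenase, in astrocytes with controls, fed either control chow or chow containing sulforaphane (SFN), a compound that activates NRF2. All mice carried 2 floxed Aldh7a1 alleles and all were given 4-hydroxytamoxifen at postnatal days 3 to 4. The cKOAstro mice (n = 7) also carried CreER, a tamoxifen-inducible recombinase, at 1 allele of Slc1a3, whereas ConAstro mice (n = 4) did not. From postnatal day 21, SFN was given to 5 SFN-fed ConAstro and to 7 SFN-fed cKOAstro mice. The Slc1a3 promoter is also active in other radial-glia-derived cells, so recombination need not be limited to astrocytes. Cells were captured with beads against the surface antigen ACSA-2, and libraries were made from polyadenylated RNA.

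Core histones H2A, H2B, H3 and H4 form the protein spool around which DNA is wound, and linker histone H1 binds where DNA enters and leaves it. Replication-dependent histone genes sit in clusters and are transcribed mostly in S phase, when new DNA has to be packaged. Their messages typically end just after a conserved stem-loop that is bound by SLBP and cut with the help of the U7 small RNA, and carry no poly(A) tail, although some of the genes also give longer, polyadenylated messages in differentiated cells. A library of polyadenylated RNA therefore samples mainly the polyadenylated messages of these genes. The unpolyadenylated ones were not measured as such, and the counts do not separate any that were carried over.

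The stem-loop was looked for in the GENCODE M21 transcripts of every gene, because it marks the end of the unpolyadenylated message. It was found in 44 of 68 genes, in each case between 21 and 58 bases after the coding sequence, that is in the 3′ untranslated region. Of the 24 genes without it, 13 had models that end at the stop codon, so that the region was not in the annotation. Among the 10 most abundant genes of the family 7 held it, and these are printed here with Hist1h4j and Hist2h4, which are named later. Each line gives 26 bases on the gene's own strand (GRCm38), and capitals mark the 6-base stem, the 4-base loop and the second arm of the stem.

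Hist1h1c, chr13:23739507-23739532, plus strand: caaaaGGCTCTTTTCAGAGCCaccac

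Hist3h2a, chr11:58955167-58955192, plus strand: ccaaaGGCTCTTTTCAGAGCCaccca

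Hist1h2be, chr13:23585526-23585551, minus strand: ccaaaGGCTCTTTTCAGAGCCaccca

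Hist3h2ba, chr11:58949344-58949369, plus strand: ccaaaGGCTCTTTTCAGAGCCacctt

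Hist1h1e, chr13:23621777-23621802, minus strand: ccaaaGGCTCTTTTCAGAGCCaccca

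Hist1h4h, chr13:23531453-23531478, plus strand: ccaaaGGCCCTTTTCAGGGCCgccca

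Hist1h4i, chr13:22040961-22040986, minus strand: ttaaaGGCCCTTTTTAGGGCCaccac

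Hist1h4j, chr13:21735432-21735457, plus strand: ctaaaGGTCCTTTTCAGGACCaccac

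Hist2h4, chr3:96262934-96262959, minus strand: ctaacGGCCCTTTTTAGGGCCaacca

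The stem-loop was searched with a fixed pattern that sets many of its 16 letters, so stem-loops with other letters there would have been missed. Within that pattern 6 different 16-base cores occurred in the 44 genes, and they divided by histone. All 11 H4 genes with a stem-loop had a stem that begins GGCC or GGTC, and all 33 genes of the other 4 histones had one that begins GGCT. The core of Hist1h1c was shared by 26 genes (3 H1, 10 H2A, 8 H2B and 5 H3), and that of Hist1h4h by 7 H4 genes. The remaining 4 cores were found in 6, 2, 2 and 1 genes.

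For most of the abundant genes the annotated transcript does not stop at the stem-loop. The longest model ran 840 bases past it in Hist1h1c, 1643 in Hist3h2a, 1861 in Hist1h2be, 1153 in Hist1h1e and 330 in Hist1h4i. In Hist3h2ba and Hist1h4h it ran 169 and 46 bases past it. The other 3 of the 10 most abundant genes, Hist1h2bc, Hist2h2be and Hist1h4k, had no stem-loop in their models, which measure 1156, 2620 and 312 bases of exon.

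The start regions also carry family features. In the RefSeq promoter windows (GRCm38.p6, 250 bases before to 50 bases after the start), 62 of the 68 genes had an entry; Hist1h2bc and Hist2h2be were among those that did not. A CCAAT box (CCAAT, either strand) was in 85.5% of these 62 windows against 37.9% of all 27025 windows, in every H1, H2A, H2B and H3 window but in 25% of the 12 H4 windows. TATAAA was in 56.5% against 14.2%. The octamer ATTTGCAT was in 38.9% of H2A and 37.5% of H2B windows, in none of the H1, H3 or H4 windows, and in 1.75% of all windows. The H1 box AAACACA was in 83.3% of the 6 H1 windows and 7.14% of all windows. None of the 4 letter strings contains another. These are matches of letters and were not tested as binding sites. Windows of the abundant H1, H2A and H4 genes are shown because they differ in these features, with motif letters on either strand in capitals.

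Hist1h1c, chr13:23738557-23738856, plus strand: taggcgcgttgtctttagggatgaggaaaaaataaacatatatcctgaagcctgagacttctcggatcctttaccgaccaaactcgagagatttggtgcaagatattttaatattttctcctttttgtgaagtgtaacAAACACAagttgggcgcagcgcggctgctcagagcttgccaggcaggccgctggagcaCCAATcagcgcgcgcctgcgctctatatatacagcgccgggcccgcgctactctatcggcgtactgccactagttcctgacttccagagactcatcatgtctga

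Hist3h2a, chr11:58954435-58954734, plus strand: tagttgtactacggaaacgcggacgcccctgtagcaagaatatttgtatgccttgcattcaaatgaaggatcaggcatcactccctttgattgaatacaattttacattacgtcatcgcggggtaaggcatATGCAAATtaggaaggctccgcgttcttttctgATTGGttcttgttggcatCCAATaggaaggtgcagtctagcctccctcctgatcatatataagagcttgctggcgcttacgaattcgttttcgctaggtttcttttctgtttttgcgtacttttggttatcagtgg

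Hist1h4h, chr13:23530794-23531093, plus strand: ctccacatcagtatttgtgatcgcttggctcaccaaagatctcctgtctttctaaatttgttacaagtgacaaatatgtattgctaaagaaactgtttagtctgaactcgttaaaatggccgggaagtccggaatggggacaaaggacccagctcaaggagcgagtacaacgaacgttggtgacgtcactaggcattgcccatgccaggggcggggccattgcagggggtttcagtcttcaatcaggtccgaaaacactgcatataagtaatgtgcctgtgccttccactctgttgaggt

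The Hist1h1c window holds the H1 box and a CCAAT box, the Hist3h2a window an octamer and a pair of CCAAT boxes, and the Hist1h4h window none of the 4 motifs.

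Some facts of the whole series bear on these genes. Libraries held 46890715 to 391701247 counts. Aldh7a1 measured 204 to 220.2 as counts-per-million (CPM, counts relative to the library's total) in ConAstro and 47.9 to 77.3 CPM in cKOAstro. In SFN-fed ConAstro it was 184 to 221 CPM in 4 libraries but 55.6 CPM in the one labelled replicate 1, and in SFN-fed cKOAstro 42.1 to 53.2 CPM in 6 libraries but 212 CPM in the one labelled replicate 2. Both go against their labels. Sums, medians and the 3 genes of lowest p in each comparison they enter are given with and without them. The names of 6 libraries begin with Astro (cKOAstro replicates 2 and 4, SFN-fed ConAstro replicate 1 and SFN-fed cKOAstro replicates 4, 5 and 6) and the others are numbered, without a statement of what the names mean. All ConAstro names have the same number before the hyphen, which no cKOAstro or SFN-fed ConAstro name has. Names in cKOAstro and SFN-fed cKOAstro have only Astro in common. Differences between such groups cannot be told apart from the names, also with numbered libraries alone. Microglial markers summed to 1801 CPM in SFN-fed ConAstro replicate 1 against 182 to 316 CPM in the other 5 Astro-named libraries, and to 196 CPM in SFN-fed cKOAstro replicate 2 against 557 to 2040 CPM in the other 16 numbered ones. In Aldh7a1 and in these markers each thus resembled libraries with the other's label and kind of name. Whether they were exchanged was not tested, and values for numbered libraries alone include SFN-fed cKOAstro replicate 2. Astrocyte markers were abundant in every library (Slc1a2 5587 to 13496 CPM, Aldoc 2697 to 4150 CPM), but so were those of oligodendrocytes (Mbp 2587 to 5225 CPM, Cnp 2546 to 5975 CPM). Over their lists, 9 astrocyte markers summed to 14039 to 29137 CPM and 6 oligodendrocyte markers to 20314 to 49267 CPM. The lowest astrocyte sum and the highest oligodendrocyte sum were both in SFN-fed cKOAstro replicate 4. In such mixed RNA, fewer cells of a type and less RNA per cell cannot be told apart.

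Summed over all 68 genes, the family took 129.9 to 194 CPM per library, and a few genes made up most of it. Hist1h2bc, an H2B gene, was the highest at 52.7 ± 6.50 CPM (SD, n = 23 libraries) and made up 34.7% of the summed mean. It was followed by the linker histone gene Hist1h1c (33.9 ± 6.08 CPM), the H2B gene Hist2h2be (18.4 ± 1.88 CPM) and the H2A gene Hist3h2a (18.3 ± 1.75 CPM). Hist1h2be and Hist3h2ba, both H2B genes, measured 6.73 ± 1.48 and 6.55 ± 1.63 CPM. These 6 genes held 86.2% to 92.3% of the family's CPM in each library, and only 10 of 68 genes had a mean of 1 CPM or more. The other 4 of these 10 were the H4 genes Hist1h4h (3.08 CPM), Hist1h4i (2.49 CPM) and Hist1h4k (1.89 CPM) and the H1 gene Hist1h1e (1.59 CPM).

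Per kilobase of exon, which takes account of length, the order of the leading genes changed. The length adds up all annotated exons of a gene, with stretches whose reads may not be assigned, so some of these levels may be understated. Hist1h2bc stayed first at 45.6 CPM per kb and Hist1h1c second at 21.7. The short Hist3h2ba came next at 10.7 CPM per kb, above Hist3h2a (8.51), Hist2h2be (7.03), Hist1h4h (6.56) and Hist1h4k (6.06). Hist1h2be, whose exons add up to 4446 bases, came ninth at 1.51 CPM per kb, after Hist1h4i (3.42). All genes after these 9 lay under 1 CPM per kb. The histones took unequal shares. H2B genes held 56.5% of the summed mean CPM, H1 genes 23.7%, H2A genes 13.1%, H4 genes 5.93% and H3 genes 0.705%. The highest H3 gene, Hist1h3d, reached 0.640 CPM.

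**Figure D1:**
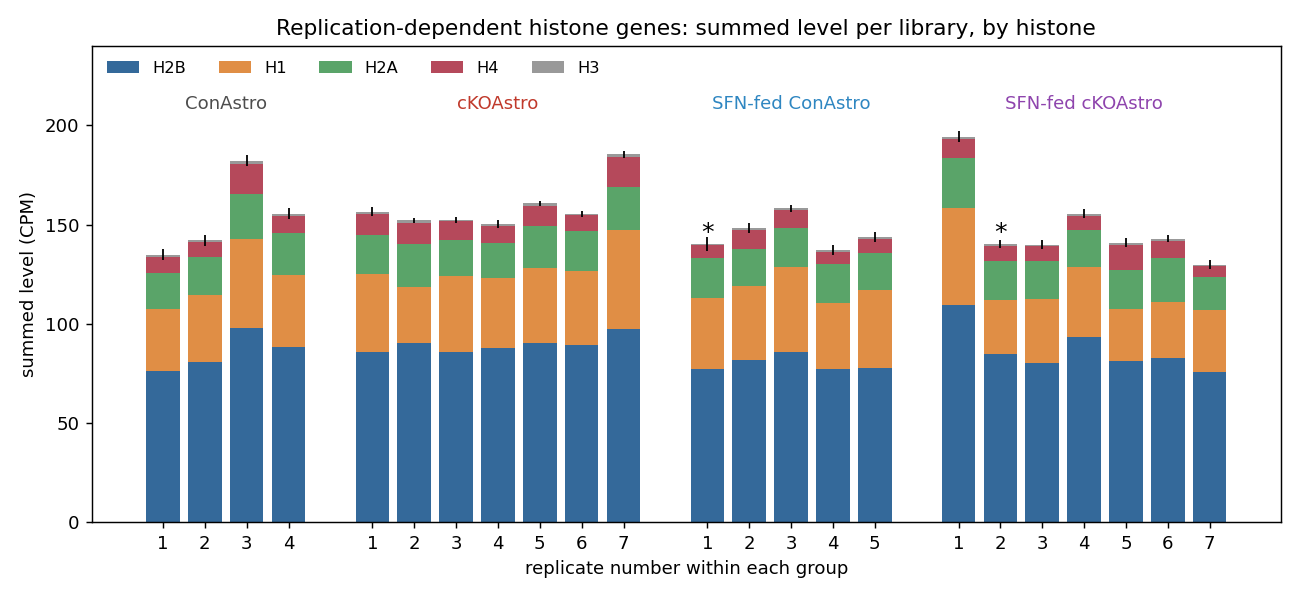
Summed CPM of the 68 histone genes in each of the 23 libraries, stacked by histone; black bars are exact 95% binomial intervals of the sum (counting error only) and stars mark the 2 libraries that go against their labels. Most libraries lie between 129.9 and 160.6 CPM, and ConAstro replicate 3 (182), cKOAstro replicate 7 (185) and SFN-fed cKOAstro replicate 1 (194) lie above them.

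Group differences in the summed level were small beside the spread between libraries. ConAstro replicates 1 to 4 summed to 135, 142, 182 and 156 CPM (mean 154 ± 20.9 SD, n = 4). In cKOAstro the sum ran from 150.3 to 185 CPM with a median of 156 (mean 159 ± 12.2, n = 7). SFN-fed ConAstro replicates 1 to 5 summed to 140.3, 148, 158, 137 and 144 CPM (mean 146 ± 8.17, n = 5), and SFN-fed cKOAstro ran from 129.9 to 194 CPM with a median of 141 (mean 149 ± 21.3, n = 7). All 4 groups overlapped, and the ratios of group means lay between 0.937 and 1.03 in the 5 comparisons of groups. Without the 2 libraries that go against their labels the means of the SFN-fed groups were 147 ± 8.79 (n = 4) and 150.5 ± 22.9 CPM (n = 6). With numbered libraries alone the 4 means were 154, 162, 147 and 151 CPM in the same order.

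Each of the 3 libraries that stood above the rest had the highest sum of the leading 6 genes in its group. That sum was 157 CPM in ConAstro replicate 3, 161 in cKOAstro replicate 7 and 178 in SFN-fed cKOAstro replicate 1. ConAstro replicate 3 and cKOAstro replicate 7 were also high in the genes outside the leading 6. In ConAstro replicate 3, 22 of the 27 genes that were counted in all 23 libraries had their highest value of the group. The 62 genes outside the leading 6 summed to 24.7 CPM there, against 14.4, 14.5 and 15.9 CPM in the other ConAstro libraries. The same sum reached 24.2 CPM in cKOAstro replicate 7, where 12 of 27 genes were highest of 7 libraries, against 13.8 to 18.3 CPM in the other 6. Hist1h4h measured 5.66 and 5.69 CPM in these libraries, whereas the others of their groups held 1.80 to 2.46 and 2.50 to 3.86 CPM. In SFN-fed cKOAstro replicate 1 the excess lay in the leading genes, with Hist1h2bc at 74.8 CPM (47.3 to 58.2 in the other 6), Hist1h1c at 46.7 CPM (24.0 to 33.5) and Hist3h2a at 23.3 CPM (15.1 to 21.04), while the 62 other genes summed to 16.03 CPM. SFN-fed cKOAstro replicate 5 held 19.5 CPM in those 62 genes, with Hist1h4h at 5.09 CPM, but had the lowest Hist1h1c of all libraries, 24.0 CPM.

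The DNA replication and mitosis genes did not single out the same 3 libraries. The 21 genes listed summed to 216 CPM in ConAstro replicate 3, 262 in cKOAstro replicate 7 and 214 in SFN-fed cKOAstro replicate 1, against 189.5 to 249.6 CPM in the other 20 libraries. Mki67, a marker of cycling cells, measured 10.4, 16.9 and 8.10 CPM there and 7.95 to 15.1 CPM in the others. cKOAstro replicate 7 was therefore the highest of all libraries in both, and the other 2 were within the range. Whether cycling cells had a part in the histone levels was not tested.

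**Figure D2:**
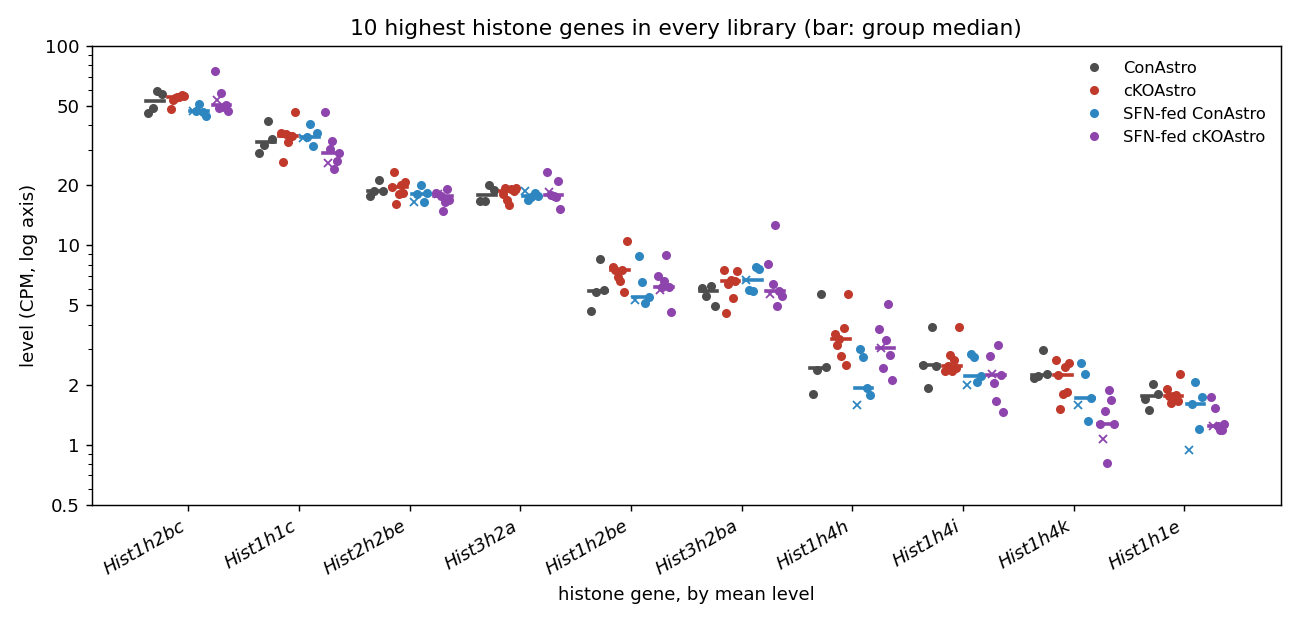
CPM (log axis) of the 10 histone genes with the highest mean, 1 point per library and colour by group; bars are group medians and crosses are the 2 libraries that go against their labels. The groups overlap for nearly all genes. Hist1h4k is the one whose SFN-fed cKOAstro libraries (0.811 to 1.87 CPM) all lie under the ConAstro libraries (2.15 to 2.99 CPM). The share of all genes that separate in this way was not computed.

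How many histone genes could be seen followed sequencing depth. Between 40 and 56 of the 68 genes had at least 1 count in a library, and between 19 and 51 had at least 10. The shallowest library, labelled SFN-fed ConAstro replicate 1, had the fewest (46890715 counts), and the most with 10 counts were in cKOAstro replicate 2, the deepest (391701247 counts). cKOAstro libraries were sequenced more deeply (107847897 to 391701247 counts) than ConAstro libraries (74771451 to 84049525 counts), and the median number of genes with 10 counts was 39 in cKOAstro and 25.5 in ConAstro. After every library was thinned at random to the smallest total, both medians were 21, and the range over all libraries narrowed to 17 to 27. ConAstro replicate 3 had the 27. The difference between these medians was thus 13.5 genes at full depth and 0 at equal depth. With 1 count as the threshold it was 4.5 at full depth and 1 at equal depth.

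**Figure D3:**
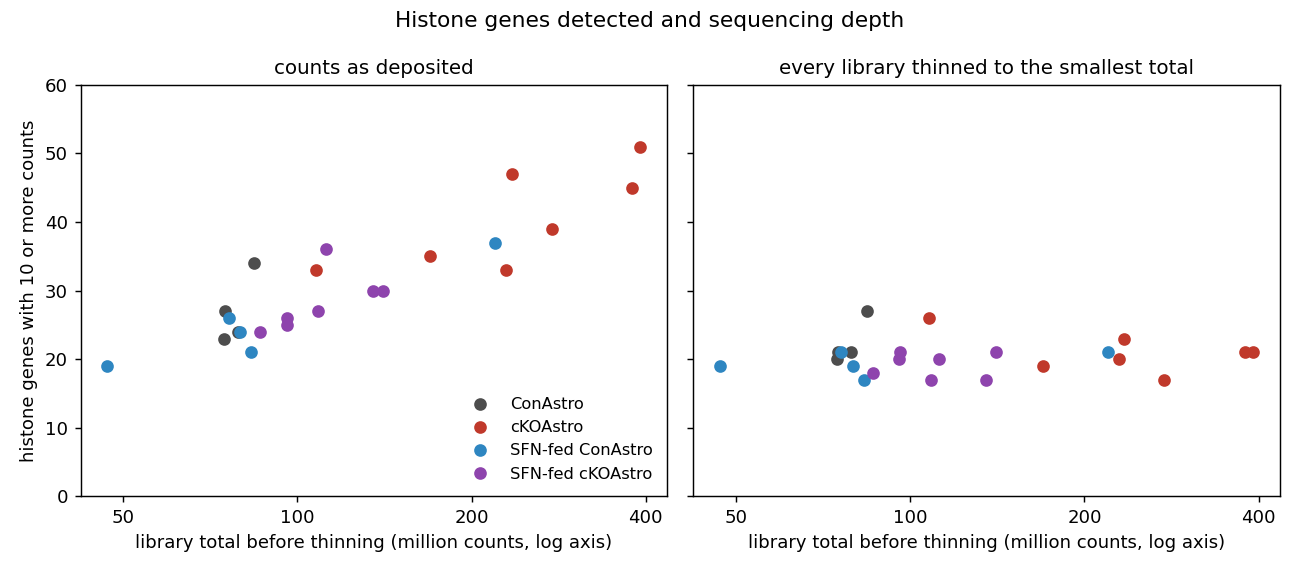
Number of histone genes with 10 or more counts in each library against its total count (log axis), as deposited (left) and after thinning every library to the smallest total (right), coloured by group. The left panel rises from 19 to 51 genes with depth, and the right panel stays between 17 and 27.

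Genes with little sequence of their own held few of the counts. Reads that match several places, or that fall in more than 1 annotated gene, are not assigned in the gene-count mode of STAR, so the share of each gene's 100-base windows that occur in no other GENCODE gene was computed. A window can recur in a related gene elsewhere or lie in an annotated gene that overlaps the same place (as Gm20628 does with Hist2h2bb and Hist2h3b), and the share does not separate the cases. The share was under 50% in 28 genes, and these held 2.19% of the family's summed mean CPM, 3 of them counted in every library. The other 40 genes held 97.8%, and 24 of them were counted in every library. Of the 9 genes with no count in any library 7 had a share of 38.4% or less, among them Hist2h2aa1 and Hist2h2aa2, which had no unique window. The other 2, Hist1h2aa and Hist1h2ba, encode testis-specific histones and had shares of 89.7% and 72.6%. A count of 0 over all 23 libraries together allows a level of up to 0.000888 CPM by the floor of 3 counts, which limits uniquely assigned reads only and covers counting error only. Hist1h4k itself had a share of 35.7%, so that its level may be understated.

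Levels also differed by the annotated transcript end. The 18 genes whose models run 200 bases or more past the stem-loop had a median of 0.221 CPM per kb and 13 of them were counted in every library. The 26 genes whose models stop sooner had a median of 0.0764 CPM per kb, with 8 counted in every library, and the 24 without a stem-loop in the model 0.101, with 6. The 3 classes held 43.4%, 7.69% and 48.9% of the summed mean CPM, the last mainly through Hist1h2bc and Hist2h2be. The ranges overlapped almost fully, from 0 to 21.7, 10.7 and 45.6 CPM per kb. The classes also differed in unique sequence (medians of 85.4%, 54.3% and 39.1% of windows), and the parts of the 2 features were not separated.

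**Figure D4:**
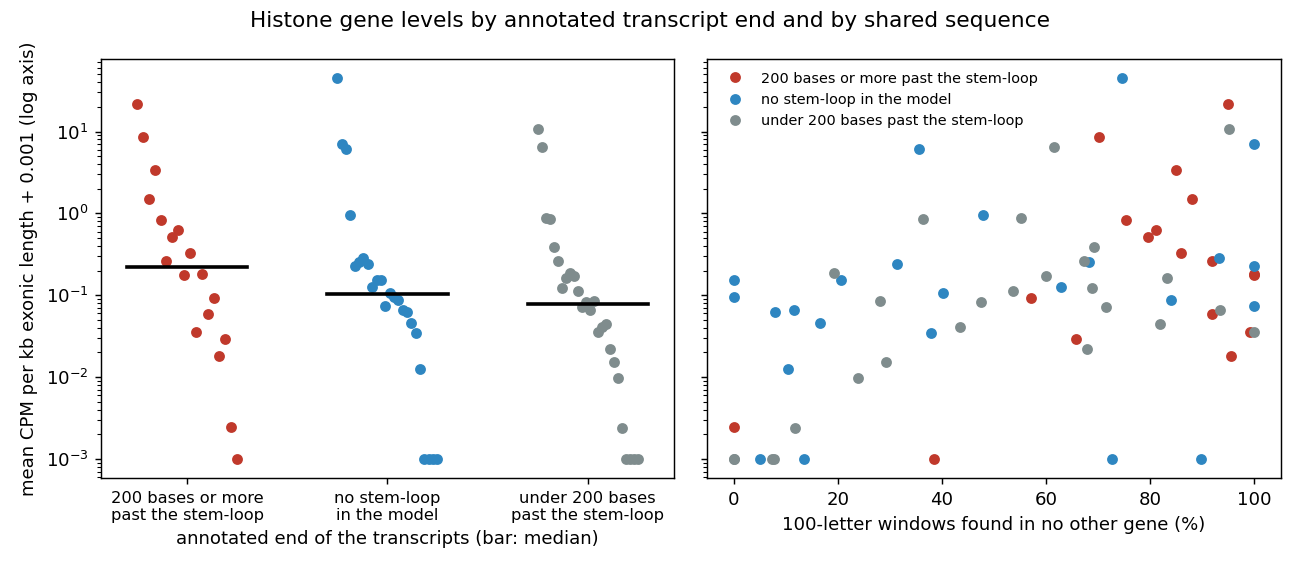
Mean CPM per kb of exon of the 68 histone genes (log axis, 0.001 added so that genes at 0 can be drawn) by the annotated end of their transcripts (left, bars are medians) and by the share of 100-base windows found in no other gene (right, percent). Genes at 0 lie on the floor of the plot and mostly at low shares of unique sequence, and each class on the left spans several powers of 10.

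Levels were then compared between groups with edgeR's quasi-likelihood test on all genes that passed its filter on low counts. No histone gene had an adjusted p under 0.05 in any of the 7 comparisons, nor under any of the 147 alternative fits, DESeq2 included. Between groups, calls were rare among all genes too, so the counts at an unadjusted p under 0.05 are given with the share of all tested genes that reached it. Log2 fold changes are given ± SE, and a p that misses the threshold does not show that 2 groups were alike.

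For the loss of Aldh7a1 on the control diet (cKOAstro against ConAstro), 41 of 68 histone genes passed the filter and 1 had an unadjusted p under 0.05, when 3.74% of all 17406 genes did. The adjusted test called 0.023% of all genes, and DESeq2 called 0.0383%. The median log2 fold change of the histone genes was -0.06, that of all genes -0.01. The leading genes were close in both groups. Hist1h2bc measured 46.3, 49.1, 59.5 and 57.1 CPM in ConAstro and 48.4 to 57.0 CPM (median 55.1) in cKOAstro, a log2 fold change of 0.02 ± 0.07. Hist1h1c measured 28.9, 31.9, 41.9 and 34.1 CPM in ConAstro and 26.01 to 46.7 CPM (median 35.3) in cKOAstro (0.03 ± 0.12). Both sets of values overlap widely.

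The gene with the lowest p was Hist1h2bf, a barely detected H2B gene. It measured 0.120, 0.0669, 0.107 and 0.165 CPM in ConAstro and 0.0087 to 0.0766 CPM (median 0.0371) in cKOAstro, a log2 fold change of -1.53 ± 0.50 (adjusted p = 0.981). The values overlapped only at their edge, and 3 counts, the floor used here for detection, amount to 0.0357 to 0.0401 CPM in the ConAstro libraries. The filter asks for enough counts in only as many libraries as the smaller group has. A gene this low can thus enter the test through ConAstro, where it was higher, so its low p is not independent of the filter. Hist1h2bf passed it in 10 of the 11 fits that left out 1 library. Next were Hist1h2bp (1.31 ± 0.64) and the H2B pseudogene Hist3h2bb-ps (0.78 ± 0.40), each with an adjusted p of 0.981. All 3 are among the low genes of the family. Without ConAstro replicate 3 the median over the histone genes was 0.10 in place of -0.06, and with DESeq2 on all libraries it was 0.02, so that its direction was not stable. Without ConAstro replicate 4 the difference of Hist1h2bp was 1.99. Median log2 fold changes of neuronal, endothelial, microglial and mural or fibroblast markers were 0.35, -0.51, -0.24 and 0.18 in this comparison, and their part was not tested.

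Under SFN (SFN-fed cKOAstro against SFN-fed ConAstro), 25 histone genes were tested and 3 had an unadjusted p under 0.05, when 20.3% of all genes did. The adjusted test called 0 of 16672 genes (0%), and DESeq2 called 1.5% of genes, with 0 of the 25 histone genes. All 3 were H4 genes and they did not move one way. Hist1h4a measured 0.0853, 0.0754, 0.0773, 0.0842 and 0.0790 CPM in SFN-fed ConAstro and 0.0695 to 0.242 CPM (median 0.157) in SFN-fed cKOAstro (1.07 ± 0.34, adjusted p = 0.195). Hist1h4h measured 1.58, 3.02, 2.76, 1.93 and 1.76 CPM against 2.10 to 5.09 CPM (0.57 ± 0.23, adjusted p = 0.211). Hist1h4k measured 1.58, 2.56, 2.26, 1.31 and 1.71 CPM against 0.811 to 1.87 CPM (-0.46 ± 0.21, adjusted p = 0.237). The groups overlapped for each of them. Without the 2 libraries that go against their labels the log2 fold changes of Hist1h4a, Hist1h4h and Hist1h4k were 1.03, 0.49 and -0.47.

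In this comparison the median over histone genes was 0.09 (0.01 over all genes), and it was 0.11 without the 2 libraries that go against their labels. With numbered libraries alone it was -0.12. Oligodendrocyte precursor, endothelial, microglial and mural or fibroblast markers had median log2 fold changes of -0.50, -0.71, -0.60 and -0.69 here and oligodendrocyte markers of 0.28, with none past the adjusted threshold, and their part in the histone values was not tested.

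The effect of SFN in control mice (SFN-fed ConAstro against ConAstro) was tested on 23 histone genes. 3 of them had an unadjusted p under 0.05, all lower with SFN, when 6.54% of all genes reached it in either direction. The adjusted test called 0% of 16509 genes and DESeq2 0.14%. Hist1h1b, an H1 gene, measured 0.160, 0.241, 0.428 and 0.228 CPM in ConAstro and 0.0853, 0.101, 0.114, 0.144 and 0.211 CPM in SFN-fed ConAstro (-1.0 ± 0.38, adjusted p = 0.762). Hist1h4j measured 0.440, 0.548, 0.809 and 0.482 CPM against 0.320, 0.440, 0.464, 0.277 and 0.276 CPM (-0.67 ± 0.27, adjusted p = 0.762). Hist2h4 measured 0.227, 0.281, 0.547 and 0.304 CPM against 0.192, 0.138, 0.264, 0.156 and 0.224 CPM (-0.78 ± 0.33, adjusted p = 0.762). In each, ConAstro replicate 3 was the highest library. With SFN-fed ConAstro replicate 1 left out, the differences of Hist1h1b, Hist1h4j and Hist2h4 were -0.91, -0.63 and -0.76. Without ConAstro replicate 3 that of Hist2h4 was -0.47.

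Of the 23 genes 18 had negative log2 fold changes, when 48.4% of all genes had positive ones. The median of the histone genes was -0.19, against -0.01 for all genes. Without ConAstro replicate 3 that median was -0.09, and it was -0.16 when the one labelled SFN-fed ConAstro replicate 1 was left out. Endothelial, mural or fibroblast and neuronal markers had median log2 fold changes of 0.57, 0.38 and 0.32 here, with none past the adjusted threshold, and their part in the histone values was not tested. Among the leading genes Hist1h2bc differed by -0.16 ± 0.08 (adjusted p = 0.771) and Hist1h1c by 0.06 ± 0.10 (adjusted p = 0.921).

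The effect of SFN in mice that lacked Aldh7a1 (SFN-fed cKOAstro against cKOAstro) was tested on 31 histone genes. Of these 25 had negative log2 fold changes, when 51.5% of all 16903 genes had positive ones. The median of the histone genes was -0.27, against 0.01 over all genes. An unadjusted p under 0.05 was reached by 4 of them, all lower with SFN, and by 10.9% of all genes in either direction. DESeq2 gave fold changes for more histone genes than these 31, 18 higher and 40 lower, with 51.7% of all genes higher. Of its histone genes 8 had an unadjusted p under 0.05, 7 lower and 1 higher, as did 2336 of all genes. The adjusted test called 0% of 16903 genes and DESeq2 0.0881%. Hist1h4k ran from 1.501 to 2.64 CPM (median 2.24) in cKOAstro and from 0.811 to 1.87 CPM (median 1.27) in SFN-fed cKOAstro (-0.62 ± 0.17, adjusted p = 0.459). Hist1h1e ran from 1.62 to 2.26 CPM (median 1.76) and from 1.18 to 1.72 CPM (median 1.24), and the groups overlapped through the SFN-fed library at 1.72 CPM, which lay above 2 cKOAstro libraries (-0.39 ± 0.12, adjusted p = 0.459). Hist1h2bn, an H2B gene, ran from 0.318 to 0.444 and from 0.138 to 0.357 CPM (-0.50 ± 0.19, adjusted p = 0.459).

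With SFN-fed cKOAstro replicate 2 left out, Hist1h4k, Hist1h1e and Hist1h2bn differed by -0.57, -0.37 and -0.52. The fourth was Hist1h2bp (-1.003 ± 0.45, adjusted p = 0.459). When the one labelled SFN-fed cKOAstro replicate 2 was left out the median over histone genes was -0.23, with numbered libraries alone -0.38, and with every library thinned to the smallest total -0.12. cKOAstro libraries were deeper (107847897 to 391701247 counts) than SFN-fed cKOAstro libraries (86276988 to 140464734 counts). Hist1h2bc (0.06 ± 0.09) and Hist1h1c (-0.14 ± 0.14) overlapped between the groups. Oligodendrocyte, endothelial and mural or fibroblast markers had medians of 0.32, 0.32 and -0.41 in the same comparison, with none past the adjusted threshold, and their part was not tested.

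For both changes together (SFN-fed cKOAstro against ConAstro), 28 histone genes were tested and 4 had an unadjusted p under 0.05, all of them lower, when 8.67% of all genes reached it in either direction. The adjusted test called 0% of 16753 genes and DESeq2 0.0391%. Hist1h4k was the gene with the lowest p of any comparison. It measured 2.15, 2.22, 2.99 and 2.27 CPM in ConAstro and 0.811 to 1.87 CPM (median 1.27) in SFN-fed cKOAstro, so that the groups did not overlap (-0.82 ± 0.20, adjusted p = 0.557). Hist1h2bn did not overlap either, with 0.440, 0.588, 0.405 and 0.507 CPM against 0.138 to 0.357 CPM (-0.84 ± 0.26, adjusted p = 0.557). The share of all genes whose groups do not overlap was not computed, so these separations are not set apart from those of other genes. In SFN-fed ConAstro against ConAstro, the barely detected Hist1h2bf did not overlap (means of 0.0191 and 0.115 CPM). Hist1h1b (-1.28 ± 0.49) and Hist1h1e (-0.37 ± 0.16) had the same adjusted p of 0.557. With SFN-fed cKOAstro replicate 2 left out, Hist1h4k differed by -0.76, Hist1h2bn by -0.84 and Hist1h1b by -1.30. This comparison shares its libraries with the others of either group, so the repeated appearance of Hist1h4k is not independent. The median over histone genes was -0.23 (-0.01 over all genes), -0.06 without ConAstro replicate 3, and -0.14 when SFN-fed cKOAstro replicate 2 was left out. Microglial, oligodendrocyte precursor, mural or fibroblast and oligodendrocyte markers had medians of -0.45, -0.38, -0.32 and 0.32, and their part was not tested. In the 3 comparisons of an SFN-fed group with a group on control chow, which share libraries, the SD between libraries of a group in the median deviation of the histone genes (log2 CPM) was 0.21, 0.22 and 0.24, about as large as the medians. This SD is the spread of single libraries. The error of a difference between groups is another measure and was not computed for these medians.

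**Figure D5:**
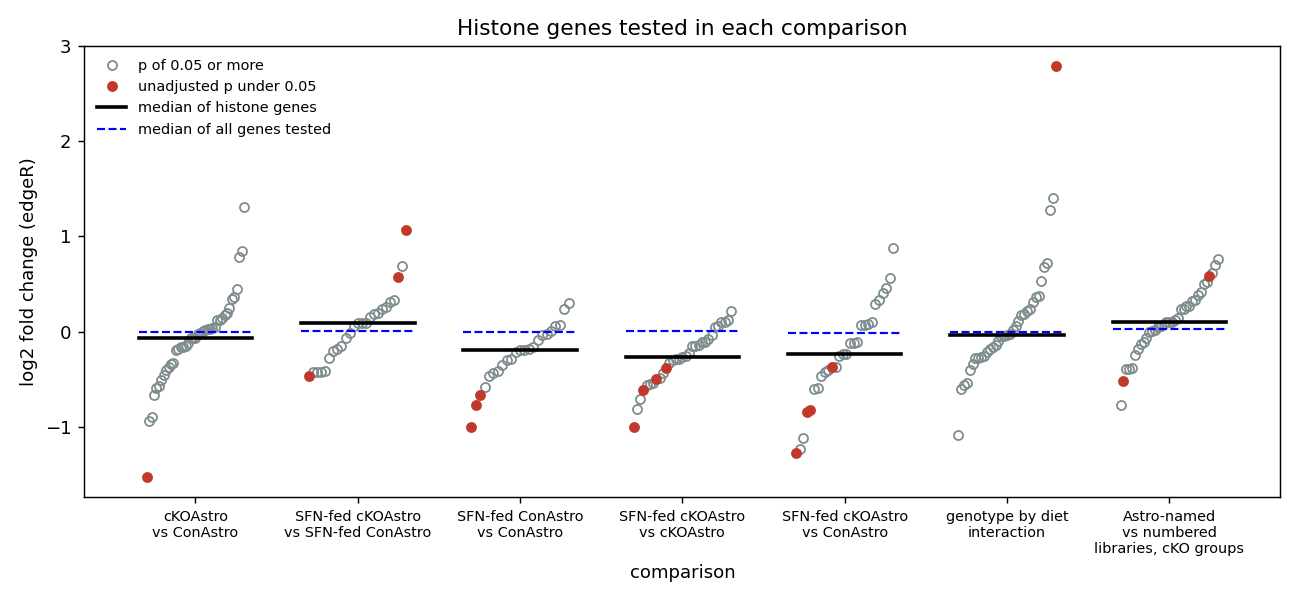
Log2 fold change of each tested histone gene in the 7 comparisons, sorted within each, with filled points for an unadjusted p under 0.05; solid bars are medians of the histone genes and dashed lines medians of all genes tested. No point passed the adjusted threshold. The medians lie between -0.27 and 0.10, and the comparisons share libraries.

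Whether the effect of Aldh7a1 loss differed between the diets was tested as an interaction over all 4 groups. Among 35 histone genes 1 had an unadjusted p under 0.05, when 7.32% of all 17302 genes did, and the adjusted test called 0%, DESeq2 0.0141%. That gene was Hist1h2bf, with an interaction of 2.79 ± 1.01 on the log2 scale (adjusted p = 0.673). It had 0 counts in 2 of the 5 SFN-fed ConAstro libraries and in 2 of the 7 SFN-fed cKOAstro libraries. It passed the filter in 22 of the 23 fits that left out 1 library. Hist1h2bj (1.27 ± 0.75) and the H3 gene Hist1h3g (1.41 ± 0.89) followed with adjusted p of 0.698 and 0.711. Without the libraries against their labels the interactions of Hist1h2bf, Hist1h2bj and Hist1h3g were 2.71, 1.22 and 1.59, and without ConAstro replicate 3 that of Hist1h2bj was 0.80. The median over the histone genes was -0.04, and 0.01 without the libraries against their labels. Mural or fibroblast and microglial markers had medians of -0.77 and -0.35. Those of neuronal, oligodendrocyte precursor, endothelial and oligodendrocyte markers were -0.31, -0.30, -0.29 and 0.28. The part of these cells was not tested.

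Libraries named Astro were compared with numbered ones within the cKO groups, with group in the fit, since the 5 of 14 with such names differ from the others in cell type markers. All 6 microglial markers were lower in them, with a median log2 fold change of -2.41, and the test called 6.23% of all 17285 genes (DESeq2 12.1%). Among the markers, Mobp (oligodendrocyte) was called higher, and Dcn and Lum (mural or fibroblast) lower. No histone gene was called. Of 35 tested, 2 had an unadjusted p under 0.05, when 22.9% of all genes did. These were the H2B gene Hist1h2bg (-0.52 ± 0.23, adjusted p = 0.202) and Hist1h4a (0.59 ± 0.27, adjusted p = 0.215), followed by Hist2h4 (0.70 ± 0.34, adjusted p = 0.239), which was 0.15 without cKOAstro replicate 2. When SFN-fed cKOAstro replicate 2 was left out these 3 differed by -0.61, 0.71 and 0.67, and the median over the histone genes was 0.07 in place of 0.10. Hist1h1c, the leading H1 gene, measured 26.01, 32.9, 33.5, 24.0 and 26.4 CPM in the 5 Astro-named libraries and 25.9 to 46.7 CPM in the 9 numbered ones (-0.25 ± 0.14, adjusted p = 0.304). The 25.9 CPM belonged to the one labelled SFN-fed cKOAstro replicate 2, and it also had the lowest microglial marker sum of the numbered libraries (196 CPM).

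The other genes of the histone supply line were measured at higher levels than most of the family. The 11 replication-independent variants summed to 706 to 941 CPM per library. Among them H3f3b, an H3.3 gene, averaged 283 CPM, the linker histone gene H1f0 148 CPM and the macroH2A gene H2afy 92.9 CPM. None of the 11 passed the adjusted threshold in any of the 7 comparisons. Their median log2 fold changes lay between -0.02 and 0.16. The most at an unadjusted p under 0.05 were 4 of 11, all higher with Aldh7a1 loss under SFN, where 20.3% of all genes reached it in either direction.

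Of the genes for transcription, 3′ processing and decay of histone messages 13 of 14 listed were in the table. The most abundant were Srrt and Upf1, which act in RNA decay and export pathways (127 and 106 CPM), and Cpsf3, the nuclease that cuts the message (55.1 CPM). Slbp, which encodes the stem-loop binding protein, measured 12.7 to 17.5 CPM. None of them was called between groups, and Srrt and Upf1 were called higher in Astro-named libraries. The 10 histone chaperones, led by Atrx (127 CPM), Nap1l1 (68.2 CPM) and Ipo4 (57.8 CPM), held no called gene. Of the 21 DNA replication and mitosis genes, led by the sliding clamp gene Pcna (56.7 CPM), Mcm4 (29.2 CPM) and Mcm7 (24.2 CPM), none was called in any comparison. Their median log2 fold changes were 0.12 for cKOAstro against ConAstro, 0.15 under SFN, -0.04 and -0.02 for SFN in control and cKO mice, and 0.10 for SFN-fed cKOAstro against ConAstro.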

How the data were processed

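Reads were processed by the authors, who deposited 1 table of whole-number counts per gene symbol for the 23 libraries. Their methods name FastQC and STAR with its gene-count mode on mm10, which counts reads that map to 1 place. The annotation version and the strand setting are not given in the sources used here, so antisense and overlapping genes could not be separated (24 of the 68 histone genes overlap another gene). No sample column was left unused.

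CPM were computed from the deposited counts and each library's total, without further scaling. Totals were 46890715 to 391701247 counts, and intervals of summed levels are exact 95% binomial (Clopper-Pearson) intervals that cover counting error only, as does the floor of 3 counts. Tests used edgeR 4.0.16 (quasi-likelihood, with limma 3.58.1 in R 4.3.3), TMM scaling, its filter on low counts (minimum 10, total 15) and Benjamini-Hochberg adjustment across every tested gene at 0.05. Each pair of groups was fitted on its own libraries, and the interaction on all 4 groups. The fits were checked on simulated counts. DESeq2 1.42.0, other scaling and filters, numbered libraries alone, replicate number as a block, leaving out each library, and thinning to the smallest total were tried as alternatives. No pair of libraries of a group agreed within sampling noise (lowest chi-square per degree of freedom 44.1). Each library came from a separate mouse.

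Histone genes named are the 10 with the highest mean level and the 3 with the lowest p in each comparison. Examples of those with no count are named as well. From each list of other genes, cell type markers excepted, the 3 with the highest mean level and any called are named. Of the cell type markers only some are named. Others that are singled out (such as Hist1h3d, Slbp, Mki67 and the genes behind small counts) were named after their values were seen. The histone genes, the lists and the tests were chosen with earlier results of these data known. Gene models, stem-loops and the 100-base windows came from GENCODE M21 (GRCm38) and promoters from RefSeq (GRCm38.p6). One marker gene of the lists is not reported here.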

Additional observations from a re-analysis of the deposited data

Results flagged for a closer look

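In groups of 4 to 7 libraries, 48 sets of values were examined for a single library far from the rest of its group, and 12 had one. Chance gives such a library in about 1 in 20 groups, and the sets share libraries and genes. Of the 12, 4 came from cKOAstro replicate 7, which summed to 185 CPM over the histone genes (150.3 to 160.6 in the other 6), with Hist1h2be at 10.5 CPM (5.82 to 7.81), Hist1h4h at 5.69 CPM (2.50 to 3.86) and Hist1h4i at 3.89 CPM (2.33 to 2.83). SFN-fed cKOAstro replicate 1 summed to 194 CPM (129.9 to 155 in the other 6), with Hist1h2bc at 74.8 CPM (47.3 to 58.2) and Hist1h1c at 46.7 CPM (24.0 to 33.5). ConAstro replicate 3 held 24.7 CPM in the 62 genes outside the leading 6 (14.4 to 15.9 in the other 3), with Hist1h4h at 5.66 CPM (1.80 to 2.46) and Hist1h4k at 2.99 CPM (2.15 to 2.27). Single genes stood apart in 2 further libraries. Hist3h2ba reached 12.6 CPM in SFN-fed cKOAstro replicate 4 (4.94 to 8.08 in the other 6), and Hist1h2bc was low at 48.4 CPM in cKOAstro replicate 1 (53.4 to 57.0).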

How the results depend on the processing

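No histone gene passed the adjusted threshold in any of 147 alternative fits, of which 94 left out 1 library. The genes called among all genes numbered 4, 0, 0, 0, 0, 0 and 1077 with edgeR and 8, 250, 24, 15, 8, 3 and 2099 with DESeq2, in the order of the comparisons above. With numbered libraries alone the median log2 fold change of histone genes under SFN was -0.12 in place of 0.09, and the cause was not tested. Leaving out 1 library gave medians of -0.11 to 0.10 for cKOAstro against ConAstro, -0.01 to 0.13 under SFN, -0.28 to -0.09 and -0.31 to -0.12 for SFN in control and cKO mice, -0.34 to -0.06 for SFN-fed cKOAstro against ConAstro and -0.26 to 0.04 for the interaction. Summed CPM ratios stayed between 0.890 and 1.10. The difference in the median number of genes detected between cKOAstro and ConAstro went from 13.5 (10 counts) and 4.5 (1 count) to 0 and 1 after thinning, which made the totals equal. Replicate numbers recur in all groups, but deviations of the 29 same-numbered pairs correlated from -0.33 to 0.47, with 11 over 0.1, so the numbers were not taken to pair the mice. With replicate number as a block, 0 histone genes were called and the 6 medians were -0.06, 0.07, -0.31, -0.23, -0.30 and 0.03. Low counts limit all genes outside the leading 10, and 3 counts amount to between 0.00766 and 0.0640 CPM per library.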

Other observations

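Over the 23 libraries and 14172 genes with enough counts, the level of Cchcr1 followed the summed histone level most closely (Pearson r = 0.869, Spearman rho = 0.811), followed by Mettl5 (0.868 and 0.850) and Hmgn1 (0.843 and 0.721), which encodes a nucleosome-binding protein. Without the 2 libraries farthest from the median of the summed level, cKOAstro replicate 7 and SFN-fed cKOAstro replicate 1, r was 0.777, 0.814 and 0.746. All values share the libraries' totals, and the 3 genes were picked as the highest of all, so they are given as a description only.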
